A study of Mus musculus with 2 samples.

Results

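The 39 genes described here carry out chromosome copying in S phase or open that phase. They are the subunits of the machinery that loads and starts the replicative helicase, the DNA polymerases and their clamp, the enzymes that make deoxynucleotides, and a few regulators. They were taken by name from a table of read counts for 35275 genes, and all 39 names were found in it. The table holds 2 libraries of TEa cells sorted from spleen, 1 library per group. TEa cells are CD4 T cells of C57BL/6 background whose transgenic receptor sees a peptide of the I-E alpha chain. For the exhausted library the cells had been placed in CB6F1 mice, hybrids of C57BL/6 and BALB/c whose own cells carry that antigen. For the effector library they had been placed in wild-type C57BL/6 mice with a Balb/c skin graft, which brings the antigen from outside. The study asked how TEa cells respond to abundant and to moderate antigen. Both groups share the TEa cells, while recipient strain, graft and antigen amount differ together and cannot be told apart. Time after transfer, age and any pooling of mice are not given in the labels.

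A cell that commits to divide first licenses its replication origins. The origin recognition complex, Cdc6 and Cdt1 load the ring-shaped MCM helicase onto DNA, and Cdc45, the GINS complex and Mcm10 then switch it on. Cyclin E kinases and E2F transcription factors drive this step, and E2F factors in turn bind the promoters of many replication genes. In T cells antigen recognition brings resting cells into this cycle, so that the genes are low in naive cells and high in dividing ones.

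The libraries held 8508129 counted reads for exhausted cells and 7844445 for effector cells. Every comparison below is a ratio of scaled counts, exhausted over effector, with a 95% interval that covers counting error only. Each group has 1 library, so nothing here was checked against replicates and p-values are not given. Genes whose reads in the 2 libraries summed to 50 or more were taken as measured, namely 9999 genes and 38 of the 39 described here. T cell markers dominated both libraries, with 49695 reads of 6 marker genes in the exhausted and 48066 in the effector library. The 6 differed in direction. Trac (11561 exhausted and 22526 effector reads) and Thy1 (372 and 835) were lower in the exhausted library. Cd3e (11432 and 7624), Cd3d (6534 and 5270), Cd4 (15463 and 9272) and Cd5 (4333 and 2539) were higher. The 20 markers of other cells summed to few reads. In exhausted cells the 5 B cell markers had 20 reads, the 5 erythroid markers 14, the 5 myeloid markers 198, the 3 NK cell markers 231 and the 2 CD8 T cell markers 81. In effector cells the same groups had 21, 89, 109, 59 and 164 reads. Ms4a1 and Cd8a were at 0 in both libraries. Most of the myeloid and NK reads in the exhausted library came from Itgam (183 reads, against 22 in the effector library) and Klrb1c (229, against 36). The part of other cycling cells in the values below was not tested.

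Replication and S-phase genes were modestly higher in the exhausted library as a group. Ratios lay above 1 for 33 of the 38 measured genes, against 49.5% of all measured genes. The counting interval lay wholly above 1 for 26 of them and wholly below 1 for 2, against 30.9% and 31.9% of all measured genes, and it held 1 for 10. A difference of at least 1.5-fold upwards, with an interval above 1, was found for 14 genes (13.6% of all measured genes). The same downwards was found for 1 gene, Rpa1 (13.6% of all measured genes). Only Rfc3 reached 2-fold upwards (6.62% of all measured genes) and none reached it downwards (7.09%). With DESeq2 size factors Ccne2 and Gins1 passed it too, making 3. The median log2 ratio was 0.53, a 1.44-fold difference, with quartiles of 0.20 and 0.67. Over all measured genes the median was -0.006, with quartiles of -0.33 and 0.32. Most genes of the list thus differed by a small step in one direction. More cycling cells and more of each RNA per cell cannot be told apart in bulk RNA.

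**Figure D1:**
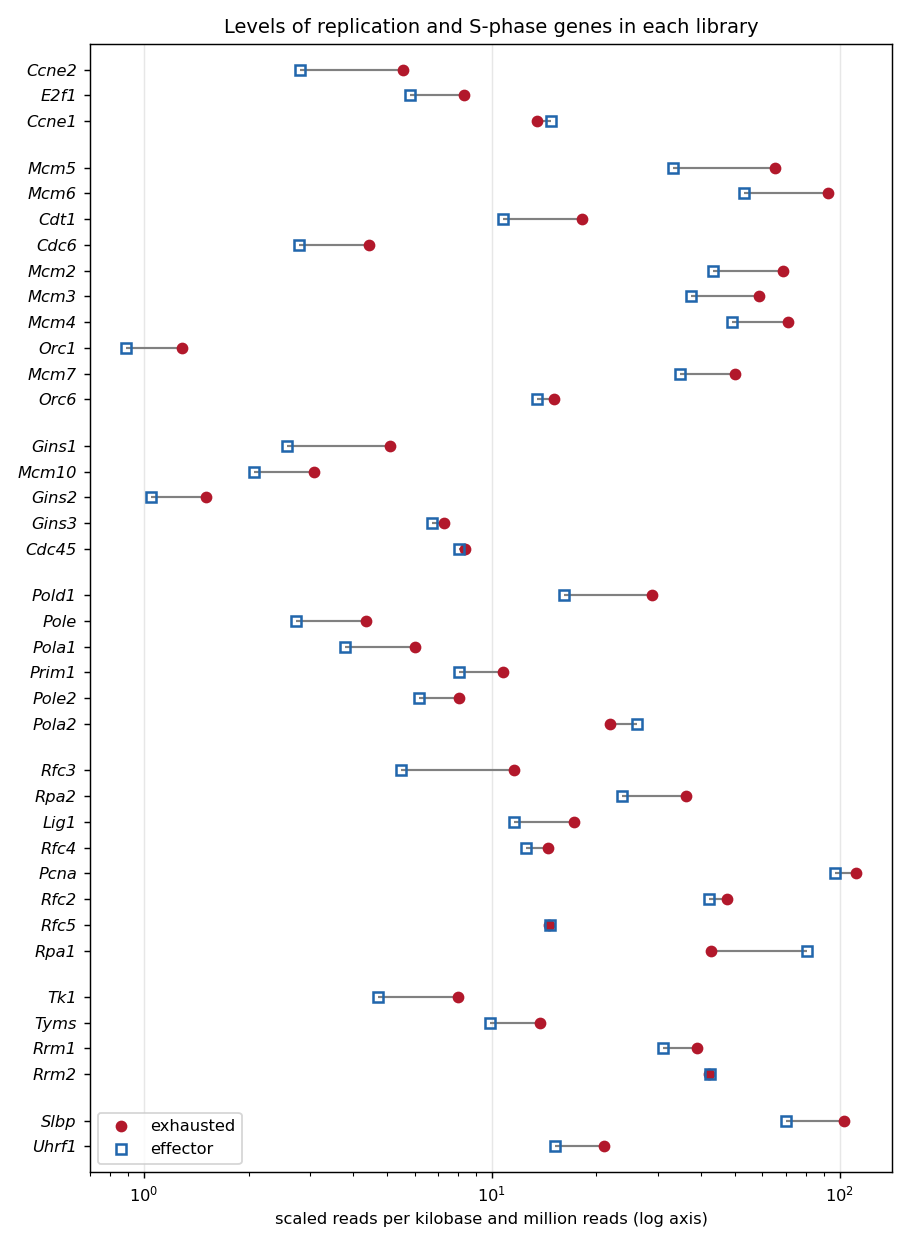
Levels of the 38 measured replication and S-phase genes, in RPKM computed from scaled counts on a log axis, with red circles for the exhausted library, blue open squares for the effector library and a line joining the pair of each gene. Genes are grouped by role, in the order S-phase entry, licensing, helicase activation, polymerases, clamp and fork, nucleotide synthesis and chromatin copying. The circle lies right of the square for 33 of the 38 genes, and Rpa1 shows the widest gap in the other direction.

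The levels of these genes lay far apart. In RPKM (scaled reads per kilobase of gene length, set to a common depth), the measured genes ran between 1.29 and 111 in the exhausted library (median 14.9) and between 0.888 and 97.1 in the effector library (median 13.0). The medians over all measured genes were 14.5 and 14.6. The sliding clamp gene Pcna was highest, at 111 in exhausted and 97.1 in effector cells, and the histone mRNA binding protein gene Slbp stood at 103 in exhausted and 70.0 in effector cells. The lowest were Orc1, at 1.29 and 0.888, and Gins2, at 1.51 and 1.05. Structural parts of the helicase and clamp were thus abundant. The loading factor Cdc6 (4.43 and 2.79) and the activation factor Mcm10 (3.09 and 2.07) were low in both libraries. Low levels did not mark all loading genes, as Cdt1 (18.2 and 10.8) and Orc6 (15.1 and 13.5) stood nearer the medians of all measured genes.

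Of the regulators of S-phase entry, the cyclin E genes differed from each other. Cyclin E activates Cdk2 at the start of S phase. Ccne2 (ENSMUSG00000028212, mm10 chromosome 4, 11191351 to 11204779) had 142 reads in the exhausted and 66 in the effector library, a ratio of 1.98 (1.47 to 2.70). Ccne1 (ENSMUSG00000002068, chromosome 7, 38097984 to 38107534) had 230 and 232 reads, a ratio of 0.914 whose interval held 1 (0.758 to 1.10). Per kilobase Ccne1 remained the more abundant of the pair, at 13.5 in exhausted and 14.8 in effector cells, against 5.55 and 2.80 for Ccne2. E2f1, which encodes an activating E2F factor, had 195 and 126 reads, 1.43-fold more in the exhausted library (1.13 to 1.80). Exons of Ccne2 overlap Ints8 on the other strand over 17.4% of their bases, and Ints8 had 1030 exhausted and 947 effector reads.

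Licensing genes had all 10 ratios above 1, against 49.5% of all measured genes. Of the 10 genes 6 were at least 1.5-fold higher (60%, against 13.6% of all measured genes). The hexameric MCM helicase encircles DNA and unwinds it, and its 6 subunit genes had 12448 reads in the exhausted and 7053 in the effector library. Mcm5 (ENSMUSG00000005410, chromosome 8, 75109528 to 75128439) had 1893 exhausted and 890 effector reads, a ratio of 1.96 (1.81 to 2.13). Mcm6 (ENSMUSG00000026355, chromosome 1, 128331590 to 128359664) had 3433 and 1814 reads, a ratio of 1.74 (1.65 to 1.85). These were the upper end of the subunits, and the others lay closer to 1.5-fold. Mcm2 had 1972 and 1147 reads (1.58-fold, 1.47 to 1.71) and Mcm3 had 1710 and 1009 (1.56-fold, 1.44 to 1.69). Mcm4 had 2177 and 1385 (1.45-fold, 1.35 to 1.55) and Mcm7 had 1263 and 808 (1.44-fold, 1.32 to 1.58). The intervals of Mcm5 and Mcm6 did not overlap those of Mcm4 and Mcm7. These genes were set side by side after the ratios were seen, and how often other genes' intervals fail to overlap was not computed. For single genes the interval lay above 1 in 30.9% and below 1 in 31.9% of all measured genes. The helicase subunits were close in level, as the highest of the 6 was 1.85 times the lowest per kilobase in the exhausted library and 1.602 times in the effector library.

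The loading factors followed the helicase. Cdt1, which delivers MCM rings to origins, had 339 exhausted and 185 effector reads (1.69-fold, 1.41 to 2.03), and Cdc6, the ATPase that works with it, had 181 and 105 (1.59-fold, 1.24 to 2.04). Geminin, encoded by Gmnn, binds and blocks Cdt1. Its gene, which is no member of the 39, had 140 exhausted and 146 effector reads, so that Cdt1 took 70.8% of the reads of the pair in exhausted cells (66.5 to 74.8%) and 55.9% in effector cells (50.4 to 61.3%). Of the origin recognition complex, Orc1 had 33 and 21 reads (1.45-fold, 0.813 to 2.63) and Orc6 had 213 and 175 (1.12-fold, 0.914 to 1.38). Both intervals held 1, and for Orc1 the depth allows no direction.

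Helicase activation genes had few reads and wide intervals. Gins1, a subunit of the GINS complex that joins MCM and Cdc45, had 47 exhausted and 22 effector reads (1.97-fold, 1.16 to 3.43). Gins2 had 50 and 32 reads (1.44-fold, 0.906 to 2.32) and Gins3 had 150 and 127 (1.09-fold, 0.854 to 1.39). Cdc45, the helicase cofactor, had 153 and 135 reads (1.04-fold, 0.823 to 1.33). Mcm10, which stabilises the active helicase, had 128 and 79 reads (1.49-fold, 1.12 to 2.003). All 5 ratios lay above 1 (49.5% of all measured genes), but only Gins1 and Mcm10 had an interval above 1 (30.9% of all measured genes). The other 3 were not distinguishable from equality at this depth. Gins2 exons overlap Gse1 on the other strand over 67.3% of their bases.

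**Figure D2:**
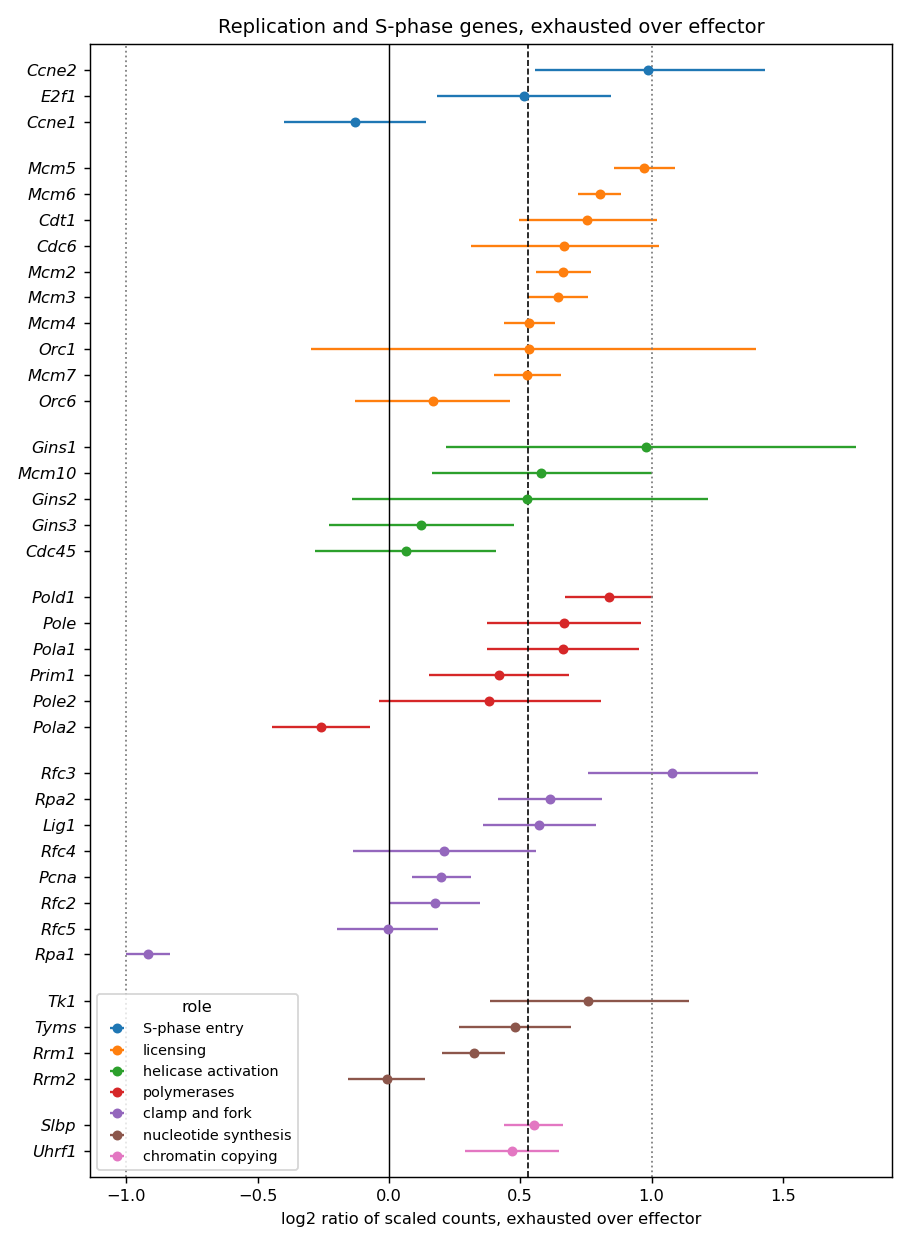
Log2 ratio of scaled counts, exhausted over effector, for each measured gene, with bars for the 95% counting interval and colours for the role. The solid line marks equality, the dashed line the list's median of 0.53 and the dotted lines 2-fold in either direction. Most intervals lie right of the solid line, Rfc3 passes the right dotted line, and Pola2 and Rpa1 have intervals wholly to its left.

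Among the polymerase genes 5 of 6 ratios lay above 1, against 49.5% of all measured genes. The 3 catalytic subunits of polymerases alpha, delta and epsilon were each at least 1.5-fold higher in the exhausted library (13.6% of all measured genes). Pold1, the catalytic subunit of the lagging-strand polymerase delta (ENSMUSG00000038644, chromosome 7, 44532746 to 44548849), had 857 exhausted and 442 effector reads, a ratio of 1.79 (1.59 to 2.01). Pole, the catalytic subunit of the leading-strand polymerase epsilon, had 265 and 154 reads (1.59-fold, 1.295 to 1.95). Pola1, the catalytic subunit of polymerase alpha, had 273 and 159 (1.58-fold, 1.297 to 1.94). The primase subunit gene Prim1 had 287 and 198 reads (1.34-fold, 1.11 to 1.61). Pole2, the second subunit of polymerase epsilon, had 116 and 82 (1.304-fold, 0.974 to 1.75), an interval that held 1. Pola2, the B subunit of polymerase alpha (ENSMUSG00000024833, chromosome 19, 5940543 to 5964206), went the other way, with 451 exhausted and 497 effector reads, 1.196-fold lower (1.05 to 1.36). It was 1 of the 2 genes of the 39 whose interval lay below 1, and the difference was small.

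The clamp, its loader and the single-strand binding protein had the widest range of log2 ratios of the 7 role groups, between -0.92 and 1.08. Replication factor C opens the PCNA ring and sets it on primed DNA, and its small subunits are products of Rfc2 to Rfc5. Rfc3 (ENSMUSG00000033970, chromosome 5, 151642756 to 151651242) had 268 exhausted and 117 effector reads, a ratio of 2.11 (1.69 to 2.65). Ratios of its partners lay nearer 1, as Rfc2 had 615 and 502 reads (1.13-fold, 1.002 to 1.27), Rfc4 had 158 and 126 (1.16-fold, 0.909 to 1.47) and Rfc5 had 467 and 432 (0.996, 0.872 to 1.14). The interval of Rfc3 lay above those of the other 3, and how often this holds among other genes was not computed. Exons of Rfc4 overlap Eif4a2 on the other strand over 12.7% of their bases, and Eif4a2 had 2456 exhausted and 1881 effector reads. Those of Rfc5 overlap Wsb2 on the other strand over 10.7%, and Wsb2 had 951 and 672. Pcna itself had 1440 and 1156 reads, only 1.15-fold more in the exhausted library (1.06 to 1.24). Lig1, the ligase that seals Okazaki fragments, had 471 and 292 reads (1.49-fold, 1.28 to 1.73).

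Replication protein A coats single-stranded DNA, and the genes of its large and middle subunits differed in opposite directions. Rpa1, the large DNA-binding subunit (ENSMUSG00000000751, chromosome 11, 75298166 to 75348324), had 1843 exhausted and 3209 effector reads. It was 1.89-fold lower in the exhausted library (1.78 to 2.002), the only gene of the 39 at least 1.5-fold lower. Rpa2, the middle subunit (ENSMUSG00000028884, chromosome 4, 132768332 to 132778752), had 559 and 337 reads and was 1.53-fold higher (1.33 to 1.76). In effector cells Rpa1 was the more abundant of the pair per kilobase (80.6 against 23.7 for Rpa2), and in exhausted cells the levels were near each other (42.7 against 36.2). Because Rpa1 had more reads than any other gene of the group, the summed reads of clamp and fork genes gave a log2 ratio of -0.20, although their median log2 ratio was 0.20.

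Fen1, which encodes the flap endonuclease of lagging-strand synthesis, was the gene not measured by the rule. It had 4 exhausted and 2 effector reads, a ratio of 1.84 with an interval between 0.264 and 20.4, which gives no direction. In the GENCODE M21 annotation 78.8% of its exon bases overlap Gm10143 on the other strand, which had 14 and 15 reads, and 5.37% overlap Tmem258, which had 715 and 745. The labels do not say how reads shared by overlapping genes were counted, and the part of this in the low count was not tested. Of the 39 genes, 16 overlap an exon of another gene, and for 10 of these the partner had at least 50 reads over both libraries, in each case on the other strand.

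Of the enzymes of deoxynucleotide supply, the genes for thymidine nucleotides had the larger ratios and those for ribonucleotide reduction the smaller ones. Tk1, thymidine kinase, had 169 exhausted and 92 effector reads (1.69-fold, 1.31 to 2.21), and Tyms, thymidylate synthase, had 455 and 301 (1.39-fold, 1.202 to 1.62). Rrm1, the large subunit of ribonucleotide reductase, had 1323 and 975 reads (1.25-fold, 1.15 to 1.36), an interval that overlapped those of Tk1 and Tyms. Rrm2, its S-phase subunit, had 787 and 730, a ratio of 0.994 whose interval held 1 (0.897 to 1.10). The subunit genes of this enzyme therefore differed by unequal amounts. The genes tied to copying of chromatin were both higher. Slbp, whose product processes histone mRNAs in S phase, had 1665 and 1047 reads (1.47-fold, 1.36 to 1.59), and Uhrf1, which carries DNA methylation onto the new strand, had 642 and 428 (1.38-fold, 1.22 to 1.57).

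Shares within pairs of partner genes do not depend on how the libraries are scaled. The pairs were chosen after the ratios were seen, so the shares restate those ratios on another scale and are a description only. Ccne2 took 38.2% of cyclin E reads in exhausted cells (142 of 372, exact 95% interval 33.2 to 43.3%) and 22.1% in effector cells (66 of 298, 17.6 to 27.3%). Rpa1 took 76.7% of the reads of Rpa1 and Rpa2 in exhausted cells (74.99 to 78.4%) and 90.5% in effector cells (89.5 to 91.4%). Pola2 took 62.3% of the reads of the alpha subunits in exhausted cells (58.6 to 65.8%) and 75.8% in effector cells (72.3 to 79.0%). Rfc3 took 36.5% of the reads of Rfc3 and Rfc5 in exhausted cells (33.0 to 40.1%) and 21.3% in effector cells (18.0 to 24.98%). Rrm2 took 37.3% of reductase reads in exhausted cells (35.2 to 39.4%) and 42.8% in effector cells (40.5 to 45.2%), and Mcm5 took 60.0% of the reads of Mcm5 and Mcm7 in exhausted cells (58.2 to 61.7%) and 52.4% in effector cells (50.01 to 54.8%). For each of these 6 pairs the intervals of the libraries did not overlap. The share of such pairs among all gene pairs was not computed. For single genes the ratio's interval lay above 1 in 30.9% and below 1 in 31.9% of all measured genes. They did overlap for Pole2, which took 30.4% of the reads of Pole2 and Pole in exhausted cells (25.9 to 35.3%) and 34.7% in effector cells (28.7 to 41.2%). They overlapped also for Gins3, which took 76.1% of the reads of Gins3 and Gins1 in exhausted cells (69.6 to 81.9%) and 85.2% in effector cells (78.5 to 90.5%).

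**Figure D3:**
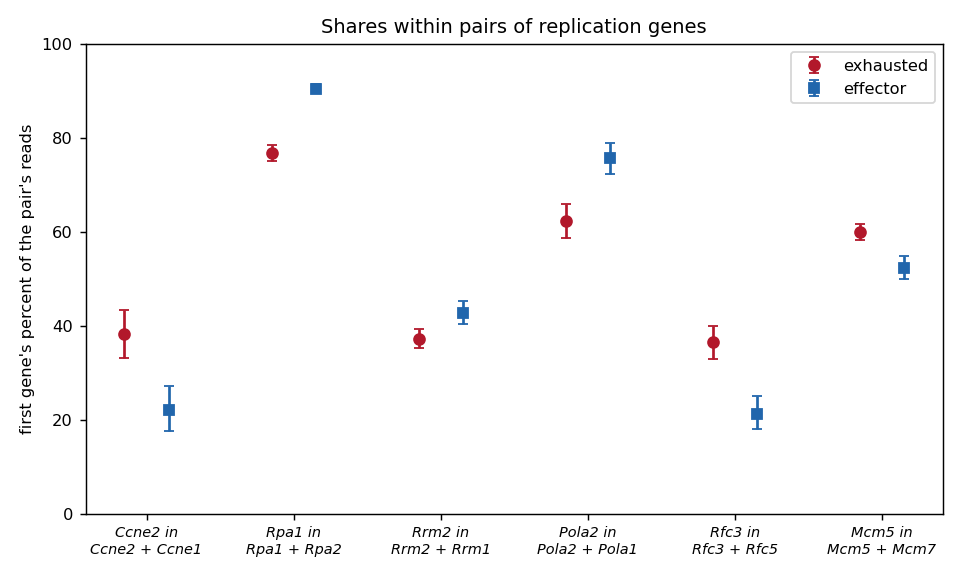
Share of a gene pair's reads taken by the first gene, in percent, with red circles for the exhausted library left of blue squares for the effector library and bars for the exact 95% counting interval. Ccne2, Rfc3 and Mcm5 take a larger share in the exhausted library, and Rpa1, Rrm2 and Pola2 a smaller one. The pairs were chosen after the ratios were seen. Those of Pole2 with Pole and of Gins3 with Gins1, whose intervals overlapped, are not drawn.

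Promoter letters were searched for E2F-type words, a choice made after the ratios were seen. The words were TTTCCCGC, TTTCGCGC, TTTGCCGC and TTTGGCGC on either strand, and copies that overlap each other were counted apart. RefSeq windows on GRCm38.p6 of 250 bases before the gene start were found for 33 of the 39 genes by symbol, and 9 of the 33 held a word (27.3%). Of all measured genes with a window the share was 4.21% (315 of 7479), of every gene with a RefSeq window 2.16%, and of 23 mitosis genes 4.35%. G1 control genes held a word more often than the 39, in 6 of 18 windows (33.3%), and other replication genes did so in 6 of 33 (18.2%). Of the 32 measured genes with a window, the 9 with a word had log2 ratios between 0.12 and 1.08 with a median of 0.66, and the 23 without one ran between -0.92 and 0.84 with a median of 0.42. A match describes letters only, and a missing word says nothing of whether E2F binds there.

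Shown are the windows of Mcm5, Mcm6, Cdt1, Mcm2 and Pola1. They are the 5 genes of highest ratio among those whose window lies wholly outside the gene body in the table. Rfc3, Pold1, Tk1 and Cdc6 are left out because their windows do not. Ccne2, Gins1 and Pole, with higher ratios than Pola1, had no window. Beside the 5 stand the windows of Pola2 and Rpa1, the genes with intervals below 1. Each runs 5′ to 3′ on the gene's strand up to the base before the RefSeq start, with E2F-type words in capitals. They lie on GRCm38.p6 at chr8:75109259-75109508 (plus strand, Mcm5), chr1:128359706-128359955 (minus strand, Mcm6), chr8:122567765-122568014 (plus strand, Cdt1), chr6:88898781-88899030 (minus strand, Mcm2), chrX:93632156-93632405 (minus strand, Pola1), chr19:5964207-5964456 (minus strand, Pola2) and chr11:75348384-75348633 (minus strand, Rpa1).
Mcm5: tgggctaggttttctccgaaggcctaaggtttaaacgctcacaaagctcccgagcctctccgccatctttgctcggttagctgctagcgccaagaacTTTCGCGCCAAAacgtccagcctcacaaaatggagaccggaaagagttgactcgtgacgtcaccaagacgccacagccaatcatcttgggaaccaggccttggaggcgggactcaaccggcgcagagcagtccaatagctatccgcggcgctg
Mcm6: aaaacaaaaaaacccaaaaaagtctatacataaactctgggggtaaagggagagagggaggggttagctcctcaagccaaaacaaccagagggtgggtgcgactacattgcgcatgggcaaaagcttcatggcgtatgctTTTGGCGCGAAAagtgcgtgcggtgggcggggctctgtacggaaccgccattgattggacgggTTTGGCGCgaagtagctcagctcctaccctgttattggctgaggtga
Cdt1: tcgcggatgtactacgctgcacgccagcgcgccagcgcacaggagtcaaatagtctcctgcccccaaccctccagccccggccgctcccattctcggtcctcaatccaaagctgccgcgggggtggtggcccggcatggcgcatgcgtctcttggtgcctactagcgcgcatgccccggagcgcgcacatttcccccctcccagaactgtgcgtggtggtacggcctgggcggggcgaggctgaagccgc
Mcm2: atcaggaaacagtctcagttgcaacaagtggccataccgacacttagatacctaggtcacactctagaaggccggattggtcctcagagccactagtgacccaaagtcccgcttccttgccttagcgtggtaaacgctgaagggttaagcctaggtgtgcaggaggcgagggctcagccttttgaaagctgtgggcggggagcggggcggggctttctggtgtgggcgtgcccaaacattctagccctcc
Pola1: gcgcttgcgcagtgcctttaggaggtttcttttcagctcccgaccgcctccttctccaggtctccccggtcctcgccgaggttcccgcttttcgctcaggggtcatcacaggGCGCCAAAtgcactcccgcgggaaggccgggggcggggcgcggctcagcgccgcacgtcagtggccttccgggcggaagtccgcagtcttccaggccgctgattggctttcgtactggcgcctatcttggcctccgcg
Pola2: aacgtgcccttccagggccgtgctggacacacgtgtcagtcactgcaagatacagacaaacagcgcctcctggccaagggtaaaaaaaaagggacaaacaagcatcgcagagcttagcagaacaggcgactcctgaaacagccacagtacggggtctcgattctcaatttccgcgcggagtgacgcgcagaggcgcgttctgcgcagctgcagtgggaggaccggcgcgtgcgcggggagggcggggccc
Rpa1: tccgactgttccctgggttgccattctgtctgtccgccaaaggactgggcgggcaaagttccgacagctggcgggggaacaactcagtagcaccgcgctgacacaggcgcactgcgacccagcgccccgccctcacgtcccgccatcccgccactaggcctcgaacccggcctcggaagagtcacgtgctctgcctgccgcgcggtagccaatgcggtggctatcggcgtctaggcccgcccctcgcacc

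In the Mcm5 window a pair of overlapping words, one per strand, began 153 and 149 bases before the start. The Mcm6 window held 3 words, at 110, 106 and 47 bases, of which the first 2 overlap. The Pola1 window held 1 word, at 138 bases. The Cdt1 and Mcm2 windows held none, although both genes had higher ratios than Pola1, and neither did those of Pola2 and Rpa1. For Cdt1, Mcm2 and Pola1 the bases just after the window were found in a GENCODE M21 transcript of the gene. For Mcm5, Mcm6, Pola2 and Rpa1 they were not, so these starts rest on RefSeq alone.

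Other genes of the replication machinery were mixed, with calls upwards at about the share of all measured genes. This list held 43 genes, all measured, of which 28 had ratios above 1 (65.1%, against 49.5% of all measured genes). At least 1.5-fold higher were 6 (14.0%, against 13.6% of all measured genes) and at least 1.5-fold lower 2 (4.65%, against 13.6%). Upwards 3 reached 2-fold (6.98%, against 6.62%). The median log2 ratio was 0.17, against 0.53 for the 39 genes. The log2 ratio of summed reads was 0.02, against 0.36. Both sums hold a well-read gene that was lower in the exhausted library. In this list Samhd1 held 1798 of 20967 exhausted and 3248 of 19117 effector reads. Among the measured genes of the 39, Rpa1 held 1843 of 27420 exhausted and 3209 of 19634 effector reads. The 3 at 2-fold were Clspn, which encodes the checkpoint mediator claspin (84 exhausted and 26 effector reads, 2.98-fold, 1.90 to 4.82), Exo1, an exonuclease gene (98 and 35, 2.58-fold, 1.74 to 3.91), and Dscc1, which encodes part of an alternative clamp loader (74 and 29, 2.35-fold, 1.51 to 3.75). Dut, whose product keeps uracil out of DNA, had 624 and 344 reads (1.67-fold, 1.46 to 1.91), and Rnaseh2c, which encodes part of an enzyme that removes RNA from DNA, had 286 and 168 (1.57-fold, 1.29 to 1.91). Rnaseh2c exons overlap Kat5 on the other strand over 24.8% of their bases. Samhd1, which encodes the enzyme that breaks down deoxynucleotides and so opposes ribonucleotide reductase, had 1798 and 3248 reads, 1.96-fold lower (1.85 to 2.08). 

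Regulators of the preceding G1 phase were split. Of 24 genes 22 were measured, 15 with ratios above 1 (68.2%, against 49.5% of all measured genes). The 1.5-fold mark was reached upwards by 6 (27.3%) and downwards by 4 (18.2%), against 13.6% of all measured genes in each direction. The median log2 ratio was 0.23. The related cyclin-dependent kinase inhibitor genes Cdkn2c and Cdkn2d, whose products block Cdk4 and Cdk6, went in opposite directions. Cdkn2c, encoding p18, had 174 exhausted and 54 effector reads (2.97-fold higher, 2.18 to 4.11). Cdkn2d, encoding p19, had 479 and 1402 reads (3.18-fold lower, 2.86 to 3.53). Cdkn2c took 26.6% of the reads of the pair in exhausted cells (23.3 to 30.2%) and 3.71% in effector cells (2.80 to 4.81%). E2f2, which encodes another activating E2F factor, had 282 and 546 reads (2.10-fold lower, 1.82 to 2.43), the reverse of the direction of E2f1. Ccnd2, encoding cyclin D2, had 7061 and 3863 reads (1.68-fold higher, 1.62 to 1.75), Cdkn1b, encoding the inhibitor p27, had 241 and 136 (1.63-fold higher, 1.32 to 2.03) and E2f6, encoding a repressive E2F factor, had 472 and 273 (1.59-fold higher, 1.37 to 1.86).

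Mitosis genes, a list chosen for the later part of the cell cycle, centred near equality. All 30 were measured, and 16 had ratios above 1 (53.3%, against 49.5% of all measured genes) and 14 below. The counting interval lay wholly above 1 for 8 and wholly below 1 for 7, against 30.9% and 31.9% of all measured genes. It held 1 for 15. The median log2 ratio was 0.03, against 0.53 for the replication and S-phase genes and -0.006 for all measured genes. By summed reads the mitosis genes were at 0.37 and the replication and S-phase genes at 0.36, nearly the same. Cdc25b alone held 3533 of the 11775 exhausted reads of the mitosis genes. The 1.5-fold mark was reached upwards by 1 (3.33%) and downwards by 4 (13.3%), against 13.6% of all measured genes in each direction. The share downwards was thus about that of all measured genes. The higher gene was Cdc25b, whose product is a phosphatase that activates mitotic kinase, with 3533 exhausted and 1009 effector reads (3.23-fold, 3.01 to 3.46). The lower genes were Kif23, which encodes a motor of cytokinesis (122 and 307 reads, 2.73-fold, 2.21 to 3.40), Cdc25c (19 and 38, 2.17-fold, 1.22 to 3.98), the kinase gene Aurkb (135 and 194, 1.56-fold, 1.25 to 1.96) and the cyclin gene Ccnb1 (252 and 352, 1.52-fold, 1.29 to 1.79). Ccnb2 stood just under that mark, with 152 and 210 reads (1.499-fold lower, 1.21 to 1.86). With 1 library per group the difference between these lists was not tested.

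**Figure D4:**
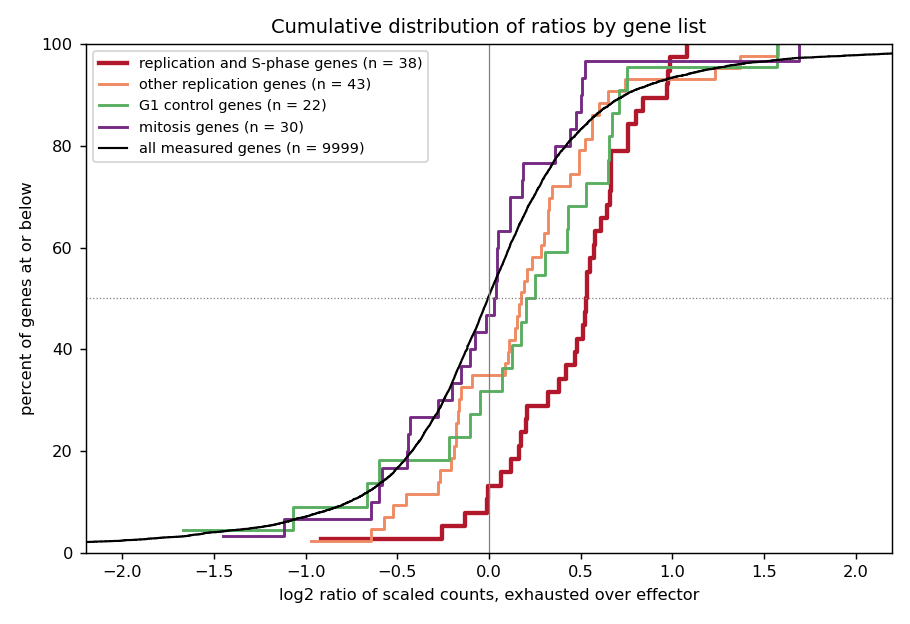
Cumulative percent of genes at or below each log2 ratio of exhausted over effector, for the replication and S-phase genes (thick red, n = 38), other replication genes (orange, n = 43), G1 control genes (green, n = 22), mitosis genes (purple, n = 30) and all measured genes (black, n = 9999). The axis is limited to 2.2 in either direction, and the red curve lies right of the black one over most of its course while the purple curve follows the black one.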

How the data were processed

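The deposited file gives raw read counts for each gene in both libraries, beside symbol, mm10 position and gene length. Per the labels' protocols, cells were sorted and frozen before Trizol extraction, and a low-input kit was used for the total RNA. Per the submitters' processing notes STAR 2.6 and mm10 were used. The counting program, its strand setting and its annotation were not given in the sources used here. No molecular identifiers are described, so PCR copies may enter the counts and intervals cover counting error only.

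Columns were matched to samples by title. The members and lists were chosen with earlier results of these data known. Counts were divided by effective library sizes (edgeR 4.0.16, trimmed mean of M-values, R 4.3.3). Intervals are exact Clopper-Pearson (scipy 1.17.1). A library at 0 was set to a floor of 3 reads. Levels are scaled counts per kilobase of the deposited gene length at a common depth (RPKM). The procedure was run on simulated data that held counting error only, which checks the code and not how real libraries vary. Alternatives used size factors of DESeq2 1.42.0, upper quartiles, library totals, minimums of 1 and 500 reads, protein-coding genes, thinning of the deeper library, removal of overlapping genes and summed counts. Exon overlaps came from GENCODE M21, in which 34490 of the table's gene IDs were found and 24912 had the same position, so overlaps are approximate.

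The rule for naming genes gave fuller values for members at least 1.5-fold different, the 12 of largest absolute log2 ratio and the 5 highest and 5 lowest levels, and up to 6 genes of largest absolute log2 ratio from each other list. Gmnn was named outside it, after its values were seen.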

Additional observations from a re-analysis of the deposited data

How the results depend on the processing

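The number of members past 2-fold depended on the scaling and on the read minimum. With DESeq2 size factors it was 3, as Ccne2 (log2 ratio 1.02) and Gins1 (1.01) joined Rfc3, and over the 20 members with at least 500 reads it was 0, since Rfc3 has fewer reads. Over those 20 members 8 were past 1.5-fold (7 higher and 1 lower), against 15 in all. The median log2 ratio of G1 control genes was 0.43 without genes that overlap another, which left 17 of them. For mitosis genes the log2 ratio of summed reads was 0.37, against a median of 0.03, and Cdc25b holds 3533 of their 11775 exhausted reads. For other replication genes the log2 ratio of summed reads was 0.02, against a median of 0.17. The other counts stayed within 1.5 times and the other medians within the median half-width of their genes' counting intervals. All 287 recomputed ratios of named genes stayed within their counting interval, but for most of them this was fixed in advance. Read minimums, the choice of protein-coding genes and removal of overlapping genes leave a gene's ratio as it was. A change of scaling shifts every ratio by the same small amount. The members' median ran between 0.53 in the main setting and 0.56 with DESeq2 size factors, and the log2 ratio of their summed reads was 0.36. Scaling moved the median of all genes by less than 0.1 on the log2 scale. No paired analysis was possible because each group has 1 library, and for the same reason no library could be left out. Depth limits Orc1, Gins1, Gins2 and Fen1, whose upper interval bounds were more than 2 times the lower ones.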

Other observations

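Genes of DNA repair and of nucleotide supply were looked at beside the replication genes, as lists drawn up after the values above were seen. Of 40 genes of the DNA damage response and repair 39 were measured, and 2-fold was reached upwards in the exhausted library by 5 (12.8%, against 6.62% of all measured genes) and downwards by 1 of the 39 (against 7.09%). Wee1, which encodes the kinase that holds back Cdk1, had 281 exhausted and 74 effector reads (3.50-fold, 2.70 to 4.59). Rad51c, a recombination gene, had 53 and 8 reads (6.11-fold, 2.88 to 14.9). Ung, which encodes uracil-DNA glycosylase, had 43 and 13 (3.05-fold, 1.61 to 6.18). Hus1, a gene of the checkpoint clamp, had 211 and 82 (2.37-fold, 1.83 to 3.10), and Chek1, the checkpoint kinase gene, had 113 and 50 (2.08-fold, 1.48 to 2.97). Fanci was lower, with 74 and 138 reads (2.02-fold, 1.51 to 2.72), and overlaps Polg on the other strand. The list's median log2 ratio was 0.15, so most of its genes differed little.

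Of 28 genes of nucleotide supply 27 were measured, with a median log2 ratio of 0.15. The 2-fold mark was reached by 1 in each direction (3.70% upwards). Of all measured genes 6.62% reached it upwards and 7.09% downwards. Dctd, which encodes the deaminase that makes the substrate of thymidylate synthase, had 77 exhausted and 24 effector reads (2.96-fold, 1.85 to 4.89). Impdh1, which encodes an enzyme of guanine nucleotide synthesis, had 582 and 1259 reads (2.35-fold lower, 2.13 to 2.59).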
